A study of Drosophila melanogaster with 17 samples.

Results

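RNA polymerase II (Pol2) occupancy of protein-coding genes was compared between ovaries mutant for cutoff (cuff) and wild-type ovaries of Drosophila melanogaster. These Pol2 ChIP-seq libraries make up 6 of the 17 samples of the series, 3 from the cuff mutant and 3 from wild type, and all 13797 genes of the deposited Pol2 table were taken. Each replicate came from the ovaries of about 30 females aged 2 to 4 days, per the labels' protocols. The labels give the mutant as cuff mutant alone, with no allele, no name for the wild-type strain and no other transgene or treatment. The table holds 1 value per gene and genotype, called the authors' mean below, so no spread between the 3 libraries of a genotype is given here. A gene was counted as changed where p was 0.05 or less in the authors' deposited table, and that p carries the only error estimate behind each comparison. No input of either genotype was set against the Pol2 values.

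In Pol2 ChIP-seq, chromatin is cross-linked, Pol2 is precipitated with an antibody and the DNA attached to it is sequenced, so a gene's value follows the amount of polymerase along it and the number of copies of the gene in the sample. Cutoff is a nuclear protein related to the decapping-associated enzyme Rai1. With the heterochromatin protein Rhino and the linker Deadlock it is known for the transcription of germline piRNA clusters, whose small RNAs silence transposons. The ovary also holds somatic follicle cells, which surround each egg chamber and, late in oogenesis, secrete the vitelline membrane and the chorion of the eggshell. To make these proteins fast enough, follicle cells replicate the chorion gene clusters and a few other loci repeatedly, a process called gene amplification. The comparison asked where polymerase occupancy differs when Cutoff is mutant.

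The authors' means summed to 50036639 in the mutant and 51692649 in wild type, and the median gene had 1292.8 in the mutant and 1269.6 in wild type. The ovary markers fitted the tissue. The 8 germline markers, vas among them, summed to 62937.1 in the mutant and 66860.9 in wild type with no gene called. The 10 follicle cell markers of the eggshell stage all had at least 2523.0 in the mutant and 3192.2 in wild type, and they are among the genes described below. Of cells that can cling to dissected ovaries, the 6 markers of the muscle sheath summed to 65999.3 in the mutant and 70911.9 in wild type. The largest of them was Prm, which lies beside a chorion cluster, with 32893.3 in the mutant and 49453.7 in wild type. The median of the 6 was higher in the mutant, at 8246.35 against 5394.25 in wild type. The 4 markers of hemocytes summed to 8990.9 in the mutant and 6180.5 in wild type. The 9 genes of chromosome Y were near 0, at most 15.1 in the mutant and 18.6 in wild type. The value of cuff itself was 805.1 in the mutant and 829.4 in wild type (p = 1 in the authors' deposited table). No allele is named, so this value is no check of the genotype.

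In the mutant 112 genes rose (0.812% of 13797) and 90 fell (0.652%), which makes 202 calls (1.46%). Genes that fell had a median of 4022.1 in the mutant and 6430.85 in wild type. By level-centred change, which is defined below, the largest falls were those of Cyp6a17, CG15571 and CG13822. Eggshell genes were also among the genes that fell. Genes that rose had a median of 1916.35 in the mutant and 828.25 in wild type. By level-centred change they were led by CG4415, CG41056 and CG43290, besides CG42644, which was listed at 0 in wild type. The median fold among called genes was 2.07 upward and 1.74 downward. Of the 697 genes whose means stood 2-fold or more apart, 609 did not pass.

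Over all genes the change went with the level. Of all 13797 genes 8073 had a higher mean in the mutant and 5720 a lower one, and the median log2 change, mutant over wild type on values plus 1, was 0.08 with quartiles of -0.14 and 0.44. With genes ranked by Pol2 level and cut into 10 equal classes, the lowest class had a median of 0.63, the sixth one of -0.04 and the highest one of -0.07. The lowest class had median values of 125.1 in the mutant and 80.55 in wild type. A level-centred log2 change was therefore computed for each gene, which is the log2 change minus the median of the 200 genes nearest in Pol2 level. On that scale the genes called higher lay between 0.66 and 4.95 and those called lower between -6.58 and -0.29, so no called gene lay on the other side of its neighbours in level. The calls rest on the same difference between genotypes, so this is no separate check of them.

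**Figure D1:**
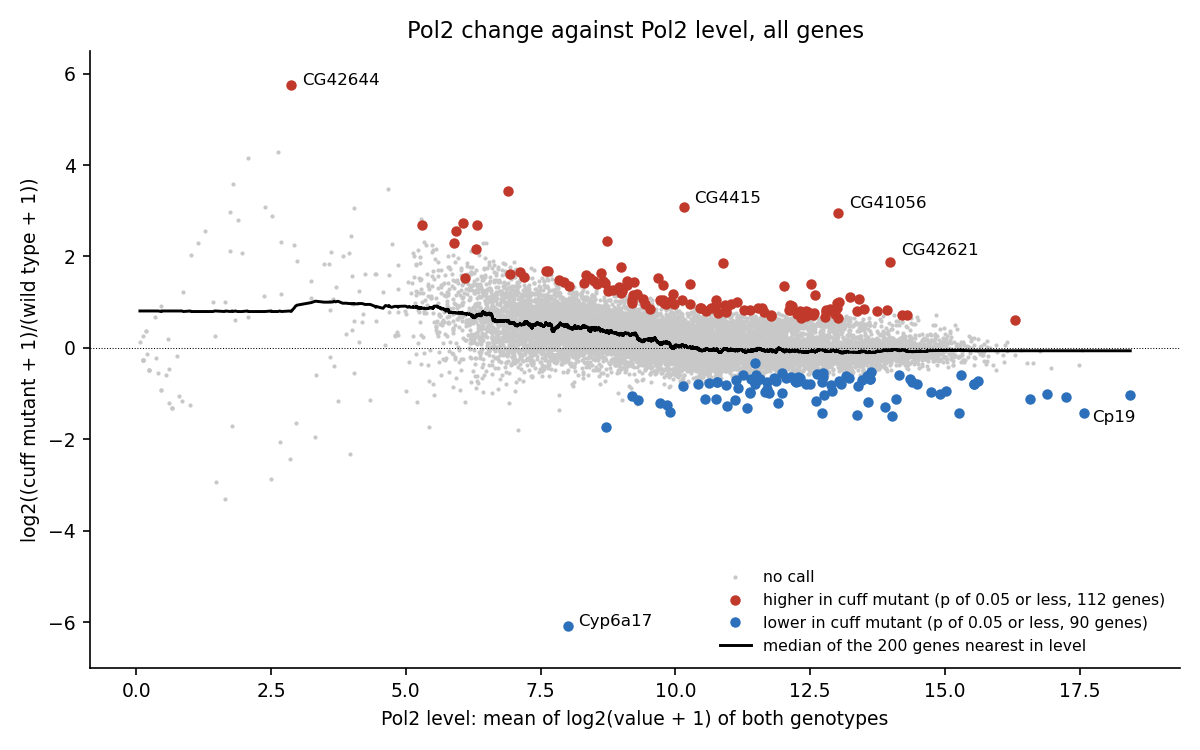
Log2 Pol2 change (cuff mutant over wild type, values plus 1) against Pol2 level (mean log2 value of both genotypes) for 13797 genes, with the 112 genes called higher in red, the 90 called lower in blue and the running median of the 200 genes nearest in level as a black line. The line lies above 0 for weakly occupied genes and just below 0 for strongly occupied ones, and the blue genes sit mostly at high levels.

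Whether a gene was expressed in these ovaries went with its Pol2 change beyond its level. The RNA table was used for this mark alone, and 8509 genes (61.7%) had an RNA mean over both genotypes of 50 or more. All 90 genes called lower carried this mark. Of the 112 called higher, 72 carried it (64.3%), 33 had an RNA mean under 50 and 7 were not listed in the RNA table. Genes were called higher at nearly the same rate with the mark (0.846%) as with an RNA mean under 50 (0.854%). The median log2 Pol2 change was -0.06 for genes with the mark, 0.43 for genes with an RNA mean under 50 and 0.55 for genes not listed. In each of the 10 level classes the genes without the mark had the higher median. In the fifth class it was 0.33 over 337 genes without the mark and -0.02 over 1043 genes with it. In the ninth it was 0.52 over 113 genes and -0.10 over 1267 genes.

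**Figure D2:**
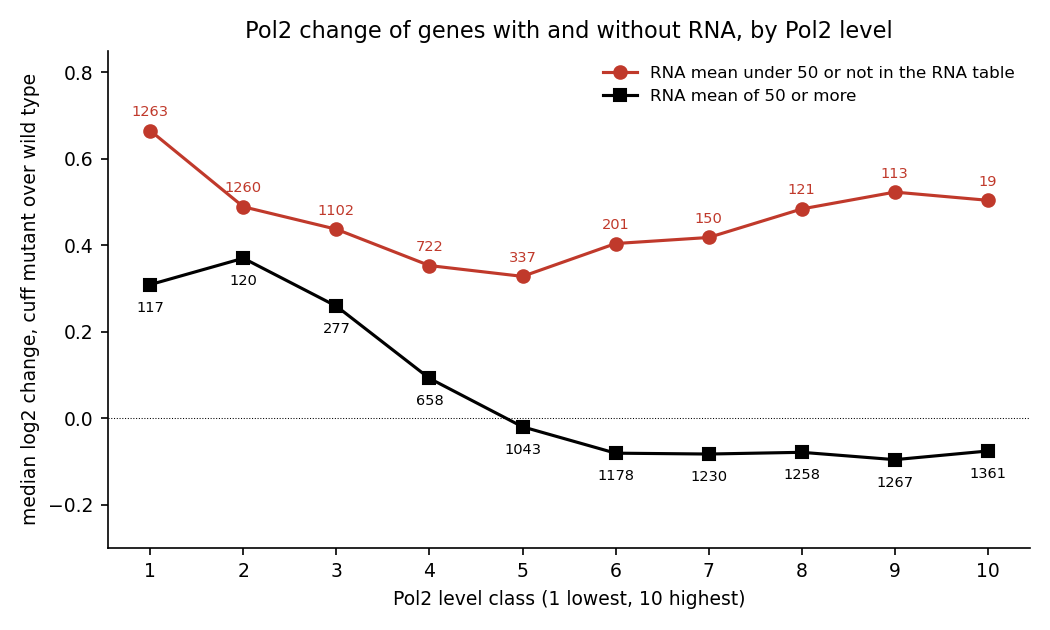
Median log2 Pol2 change (cuff mutant over wild type) in 10 classes of Pol2 level, for genes with an RNA mean under 50 or not in the RNA table (red circles) and genes with an RNA mean of 50 or more (black squares), with the number of genes printed at each point. The red medians lie between 0.33 and 0.67 and above the black ones in every class, and the black ones fall below 0 from class 5 upward.

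Per kb of gene, with gene lengths from assembly Release 6 for 13573 genes, the difference was an offset of similar size in genes with little or no RNA. Genes not listed in the RNA table had a median of 203 per kb in the mutant and 140.4 per kb in wild type, a median difference of 60.4 per kb, and 86.9% of them had a higher mean in the mutant. Genes with an RNA mean under 50 had 231.3 per kb in the mutant and 167.8 per kb in wild type, a median difference of 56 per kb, with 88% higher. Genes with the mark had 718.9 per kb in the mutant and 756 per kb in wild type, a median difference of -28.7 per kb, with 40.3% higher. The medians of the unlisted genes, 203 in the mutant and 140.4 in wild type, were taken as the floor of each genotype. Of the 106 genes called higher that have a length, 55 stood above the floor in both genotypes, and all 55 were still higher after the floor was taken off. Another 21 stood above it in the mutant alone and 30 in neither genotype, and 9 of those 30, all over 20 kb long, were lower in the mutant once the floor was taken off. The floor grows with whole gene length and is larger in the mutant. A long gene below it in both genotypes can therefore come out lower through length alone. Such a reversal is no check of its rise, here or below. In the longest of 5 length classes, genes without the mark had medians of 185.2 per kb in the mutant and 132.2 per kb in wild type, both under the floor. Which span the authors counted reads over is not stated. Of the 90 genes called lower 89 stood above the floor in both genotypes. These had to stay lower, since the floor taken off was larger in the mutant, so this is no check of their fall. What the offset consists of was not tested.

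The losses included the genes of the chorion, the outer eggshell. All 9 measured chorion genes of the amplified clusters fell, where 0.652% of all genes did, and their values summed to 487908.8 in the mutant and 1085170.4 in wild type, which is 0.975% of all Pol2 signal in the table in the mutant and 2.1% in wild type. Their median log2 change was -1.07, beside 0.08 over all genes. Cp19, on arm 3L, had 119977.2 in the mutant and 323233.6 in wild type, 2.69-fold lower (p = 0 in the authors' deposited table, which is below the smallest other value printed there, 2e-13). Its neighbour Cp16 had 24004.8 in the mutant and 64564.8 in wild type, 2.69-fold lower. Cp15 had 107192.2 in the mutant and 224582.4 in wild type, 2.1-fold lower. Cp18, the remaining gene of that cluster, fell least, with 16613.8 in the mutant and 26505.7 in wild type, 1.59-fold lower at p = 0.008 in the authors' deposited table.

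The cluster on the X chromosome moved the same way. Cp36 had 66143.9 in the mutant and 142898.5 in wild type, 2.16-fold lower, and Cp38 had 85604.9 in the mutant and 173253.5 in wild type, 2.02-fold lower. Of the smaller genes beside them, Cp7Fa had 9927.2 in the mutant and 27718.0 in wild type and was 2.79-fold lower, the largest fold among the 9. Cp7Fb fell 1.65-fold and Cp7Fc 1.96-fold. CG33223, whose annotated span overlaps this cluster, held the highest Pol2 value of the table, with 248784.8 in the mutant and 505537.4 in wild type. The 5 chorion genes of the cluster summed to 220120.8 in the mutant and 446283.9 in wild type, so reads counted for them can also have been counted for CG33223, and its fall is not separate from theirs.

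The 6 loci taken as amplified in follicle cells lie at cytological positions 7F, 66D, 30B, 62D, 34B and 22B. This grouping was made after the values were seen. Of the 15 genes taken as members of these loci 13 fell (over all genes 0.652%) and 0 rose, with a median log2 change of -1.07. At 62D, yellow-g and yellow-g2, a pair of yellow-family genes that strengthen the eggshell, had 8051.1 and 9688.3 in the mutant against 18260.8 and 23644.9 in wild type. At 30B, CG13114 had 6367.4 in the mutant and 17664.2 in wild type, 2.77-fold lower, and its neighbour CG13113 had 713.8 in the mutant and 1276.9 in wild type without passing (p = 0.08 in the authors' deposited table). At 34B the vitelline membrane gene Vm34Ca had 21687.7 in the mutant and 43451.1 in wild type, 2-fold lower. At 22B, CG7337 did not pass, with 27899.9 in the mutant and 29871.8 in wild type (p = 0.9 in the authors' deposited table).

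Within 10 genes of the members, the genes called lower were all among the nearest 3 on either side. Each lies in a run of called genes in which annotated spans overlap, so reads of members can have been counted for such neighbours too. Among the 36 genes that lie 1 to 3 genes from a member locus, 26 had a lower mean. Of these 36 genes 5 fell (over all genes 0.652%) and 0 rose, with a median log2 change of -0.26. Among the 84 genes 4 to 10 genes away, 41 had a lower mean, 0 fell and 3 rose, with a median of 0.03. At 66D the near genes included CG43965, with 4092.1 in the mutant and 11022.7 in wild type, CG6511, with 23940.1 in the mutant and 46322.4 in wild type, and Prm, which encodes the muscle protein paramyosin, with 32893.3 in the mutant and 49453.7 in wild type. At 62D, CG32302 had 2526.1 in the mutant and 5822.9 in wild type. On the far side of the X cluster, otu, a germline gene of oogenesis, had 7479.5 in the mutant and 8879.6 in wild type and did not pass. Pol2 signal per gene copy and the number of gene copies cannot be told apart here, since no DNA measurement of either genotype was used. In whole ovaries fewer follicle cells of the eggshell stage and less polymerase per cell cannot be told apart either.

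**Figure D3:**
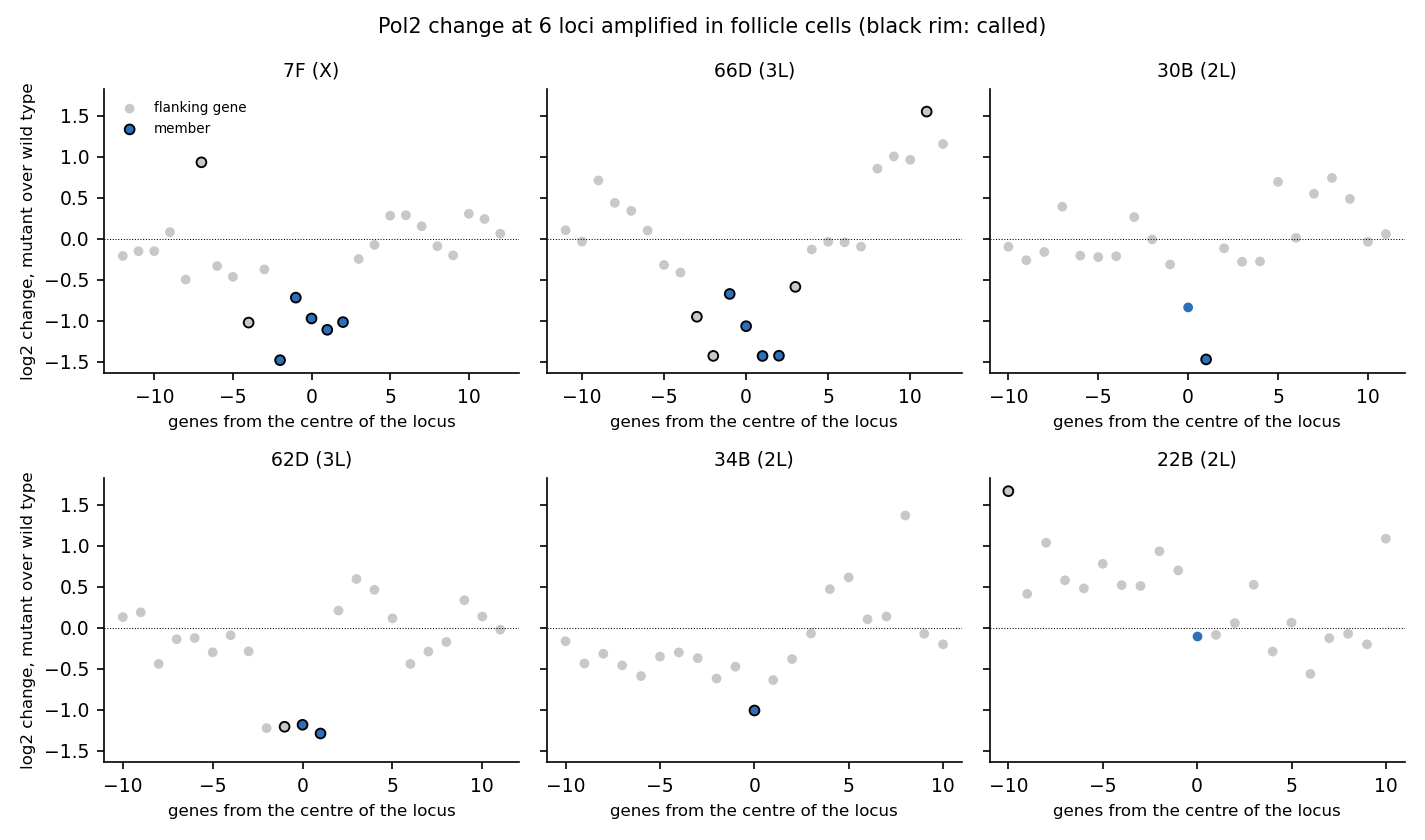
Log2 Pol2 change (cuff mutant over wild type) of the genes of 6 loci amplified in follicle cells (blue) and of the 10 genes on each side (grey), in gene order, with a black rim around called genes. Called members lie between -1.48 (Cp7Fa) and -0.67 (Cp18), whereas CG7337 at 22B lies at -0.10.

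Genes of the vitelline membrane, the inner eggshell layer, were also among the losses, in part the same genes as above. Of 15 measured genes of the vitelline membrane and other eggshell parts 9 fell (over all genes 0.652%), 0 rose and 6 did not pass, with a median log2 change of -0.58. Among the 9 are yellow-g, yellow-g2 and Vm34Ca, already counted as members of the amplified loci. Vm26Aa had 16549.2 in the mutant and 27945.2 in wild type, 1.69-fold lower. Vm26Ab, a structural protein of the same layer, had 8847.3 in the mutant and 14490.1 in wild type, 1.64-fold lower, and Vm26Ac and psd of the same gene cluster fell 1.52-fold and 1.49-fold. Vm32E fell least of all called genes, with 2523.0 in the mutant and 3192.2 in wild type, 1.26-fold lower at p = 0.03 in the authors' deposited table. Femcoat, another eggshell gene, had 1163.4 in the mutant and 2537.5 in wild type. The 6 that did not pass include dec-1, a chorion gene used earlier and longer, with 41330.4 in the mutant and 47458.5 in wild type. They also include the eggshell peroxidase gene Pxd, with 6484.9 in the mutant and 6482.1 in wild type. The genes fs(1)N, fs(1)M3 and Vml, which shape the vitelline membrane and the patterning cues stored in it, ranged in log2 change between -0.09 and 0.20.

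Other follicle cell and germline gene groups carried few calls or none, where 1.46% of all genes were called. None of 23 follicle cell regulators, 18 genes of the ecdysone response, 12 of ecdysteroid synthesis and 4 yolk protein and receptor genes passed, with list medians of -0.03, -0.01, 0.04 and 0.18 on the log2 scale. Yp1, a yolk protein made by fat body and follicle cells, had 11700.3 in the mutant and 8420.6 in wild type, and Yp3 had 2571.5 in the mutant and 3708.9 in wild type. None of 39 female germline genes passed, at a median of -0.15, which was -0.07 set against genes of like level. Of 29 genes of replication and amplification 1 fell (over all genes 0.652%), Orc1, the large subunit of the origin recognition complex. Orc1 had 5681.7 in the mutant and 9958.8 in wild type, 1.75-fold lower (p = 0.0007 in the authors' deposited table). The list median was -0.13, and 27 of the 29 had a lower mean. Set against genes of like level the median was -0.07, and against genes of like level and length it was -0.02. The licensing factor gene dup had 9509.5 in the mutant and 12252.7 in wild type without passing.

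Among all called genes the largest fall was that of Cyp6a17, a cytochrome P450 gene on arm 2R. It had 30.2 in the mutant and 2112.6 in wild type, 70-fold lower. In the mutant this is below the floor for a gene of its length, and Cyp6a17 was the 1 gene called lower that stood above the floor in wild type alone. Its neighbour Cyp6a22 fell 1.79-fold, with 839.5 in the mutant and 1505.4 in wild type at p = 0.05 in the authors' deposited table. Cyp6a23, of the same gene group, had 2140.3 in the mutant and 1968.4 in wild type without passing. Of 80 cytochrome P450 genes 3 fell and 1 rose, where over all genes 0.652% fell and 0.812% rose. The third to fall was Cyp4e2, with 4389.3 in the mutant and 7537.9 in wild type. The 1 that rose was Cyp4d21, with 344.3 in the mutant and 107.4 in wild type, below the floor in both genotypes.

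Several neighbours fell together at other places in the genome. On the X chromosome CG15571, CG15570, Femcoat and CG43134 lie side by side. CG15571 had 228.4 in the mutant and 760.7 in wild type, 3.33-fold lower, and CG15570 had 11805.2 in the mutant and 25731.8 in wild type, 2.18-fold lower. CG43134 fell 1.67-fold, with 5222.7 in the mutant and 8703.9 in wild type. On arm 2R, Sod3, an extracellular superoxide dismutase, had 4145.2 in the mutant and 9290.1 in wild type, 2.24-fold lower, and CG30022 beside it fell 1.7-fold. CG13083 and CG13084 on arm 2L fell 1.99-fold and 1.97-fold. Single genes with large falls included CG13822, now GILT3, of the thiol reductase family, with 581.9 in the mutant and 1547.7 in wild type (p = 4e-05 in the authors' deposited table). CG10163 had 1282.5 in the mutant and 3109.1 in wild type, and CG12129 had 594.1 in the mutant and 1422.2 in wild type. Arc2, a relative of the neuronal Arc protein that forms capsids, had 4834.6 in the mutant and 9887.2 in wild type, 2.04-fold lower.

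In all, called genes with at most 1 measured gene between them formed 29 runs with 75 genes. Of these runs 14 held only genes that fell, 12 only genes that rose and 3 both, and in 11 of them annotated spans overlapped, so that the same reads can have been counted for neighbours. Adh and its downstream neighbour Adhr, which share transcripts, carry identical values of 9883.8 in the mutant and 15860.9 in wild type and are 1 measurement.

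Enzyme and transporter genes were called in both directions, and those given here were chosen after their values were seen. Pdk, a kinase that holds back pyruvate dehydrogenase, had 17343.4 in the mutant and 30195.3 in wild type, 1.74-fold lower (p = 0.0007 in the authors' deposited table). The trehalose transporter gene Tret1-1 had 7989.2 in the mutant and 14181.5 in wild type, 1.77-fold lower. Mdh2, the mitochondrial malate dehydrogenase, had 3982.8 in the mutant and 6164.6 in wild type, and P5CDh1, an enzyme of proline breakdown, had 9635.8 in the mutant and 14817.8 in wild type. Both were at p = 0.03 in the authors' deposited table. Tpc1, the mitochondrial carrier of thiamine pyrophosphate, had 3615.1 in the mutant and 5596.7 in wild type at the same p. In the other direction Pepck, an enzyme of gluconeogenesis, had 5925.4 in the mutant and 3352.0 in wild type, 1.77-fold higher (p = 0.0002 in the authors' deposited table). The lipase gene Lip4 had 2902.6 in the mutant and 1490.8 in wild type. Among 35 UDP-glycosyltransferase genes Ugt58Fa alone was called (over all genes 1.46%), with 1475.1 in the mutant and 3247.7 in wild type.

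Heat shock genes were among the most occupied of the table, and 2 of 24 fell (over all genes 0.652%). Hsp22 had 35922.8 in the mutant and 62528.9 in wild type, and Hsp67Bb, whose span overlaps it, had 36316.7 in the mutant and 63058.4 in wild type. They share most of their reads and count as 1 measurement. Hsp83 and Hsp26, both among the 5 most occupied genes, did not pass. Hsp83, the Hsp90 chaperone, had 186040.8 in the mutant and 193210.0 in wild type, and Hsp26, a small heat shock protein abundant in the germline, had 160475.9 in the mutant and 207286.9 in wild type. The list median was -0.20, and 22 of the 24 had a lower mean. Set against genes of like level the median was -0.15, and against genes of like level and length it was -0.04.

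The gains were led by a small set of genes that stood far from others of like level. CG4415, now named gNacalpha and related to the alpha subunit of the nascent polypeptide-associated complex, had 3307.4 in the mutant and 391.6 in wild type, 8.45-fold higher, with a level-centred change of 3.04. Its span overlaps that of IA-2, which encodes a phosphatase-like protein of secretory vesicles and also rose, with 15740.7 in the mutant and 7505.4 in wild type, 2.1-fold higher. CG41056, now part of Pzl, which is related to the Piezo ion channel, had 23153.0 in the mutant and 2994.7 in wild type, 7.73-fold higher. Other annotated pieces of Pzl did not pass, since CG42618 had 2501.1 in the mutant and 1226.5 in wild type and CG42617 had 1530.9 in the mutant and 949.5 in wild type. CG43290 had 391.0 in the mutant and 35.2 in wild type, 11.1-fold higher (p = 9e-11 in the authors' deposited table), and CG4842 had 3595.1 in the mutant and 985.3 in wild type, 3.65-fold higher. CG5111 had 944.7 in the mutant and 275.1 in wild type, and CG3626 had 6611.8 in the mutant and 2598.7 in wild type. The genes mtsh and CG32364 (tut), both known from the male germline, had 1413.5 and 566.8 in the mutant against 540.7 and 185.9 in wild type. Among weakly occupied genes, CG13898 had 169.7 in the mutant and 24.8 in wild type, and term, a zinc finger gene, had 201.7 in the mutant and 30.4 in wild type. Of the genes in this group, term stood below the floor in both genotypes, and CG13898, CG43290 and CG5111 stood above it in the mutant alone. The RNA export factor relative nxf4, which lies beside CG43290, rose 2.58-fold, with 418.2 in the mutant and 162.2 in wild type. CG13321 and CG42854, at higher levels, rose 2.89-fold and 2.78-fold.

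**Figure D4:**
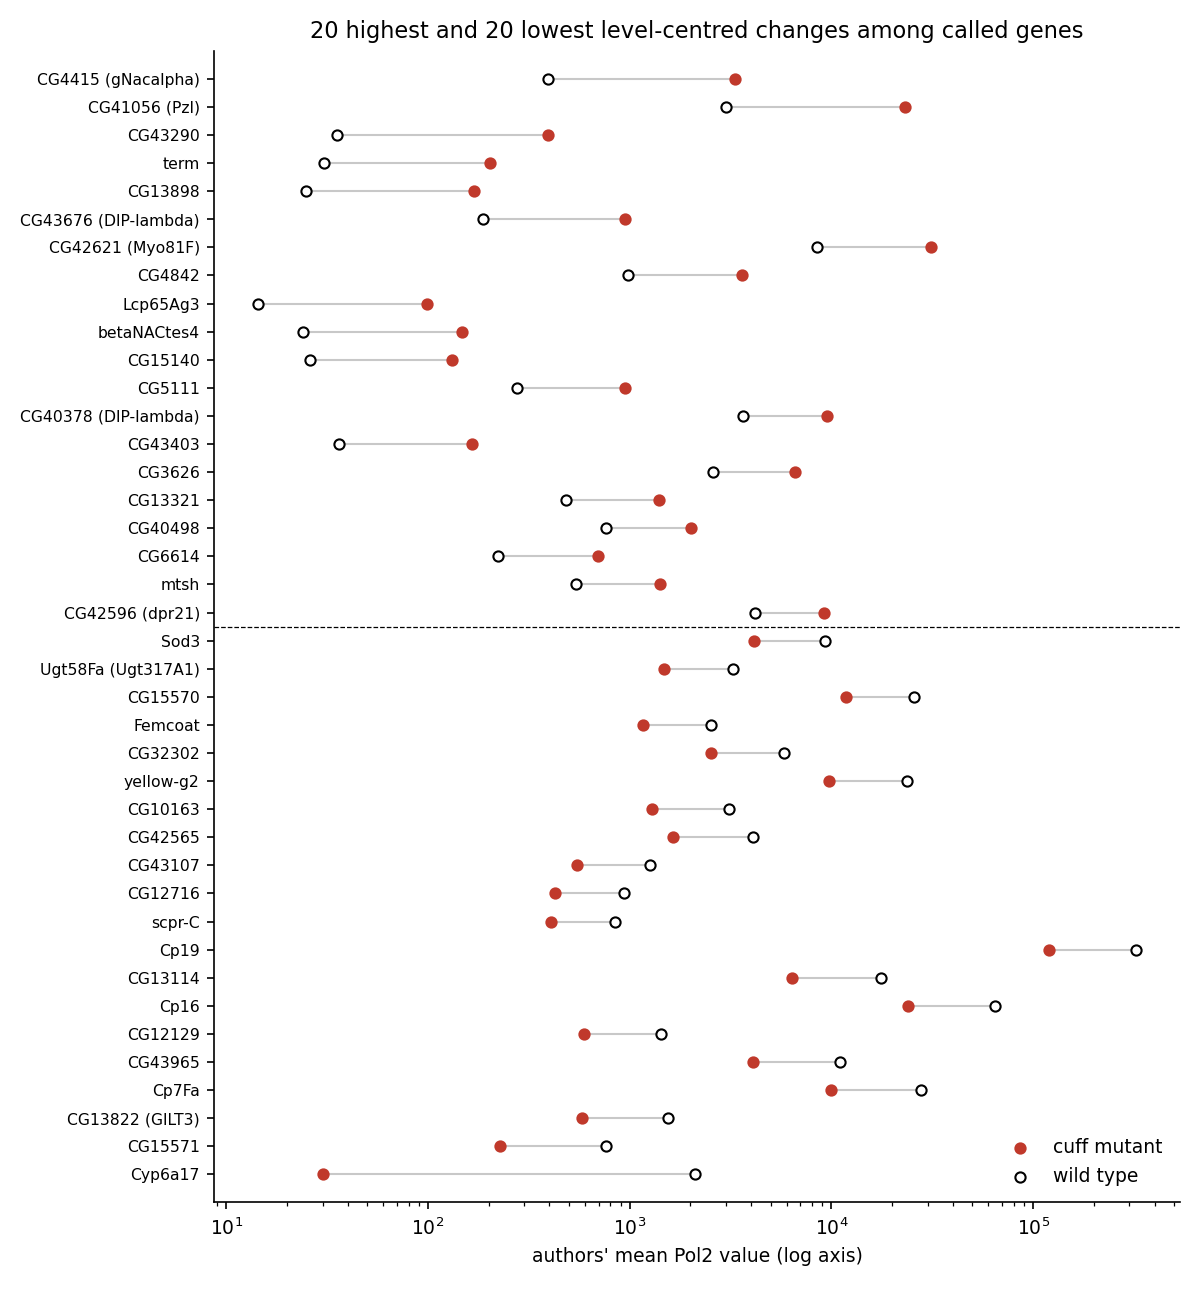
Authors' mean Pol2 values (log axis) in the cuff mutant (red) and wild type (open) for the 20 called genes with the highest level-centred change (above the dashed line) and the 20 with the lowest (below it). CG4415 stands at 3307.4 in the mutant and 391.6 in wild type, and Cyp6a17 at 30.2 in the mutant and 2112.6 in wild type.

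Called genes stood close together beside the centromere of arm 2R, though none of those with a length exceeded the floor. With gene order from assembly Release 6, 8 of the 60 measured genes nearest that centromere rose and 0 fell, whereas 12 of the other 2748 genes of the arm rose and 21 fell (over all genes 0.812% rose). Their median level-centred change was 0.23, and 47 of the 60 lay above 0. The first 4 genes all rose. Of these, CG40378, CG43676 and CG42644 are now joined as DIP-lambda, which encodes an immunoglobulin-family surface protein. CG40378 had 9511.8 in the mutant and 3624.0 in wild type, 2.62-fold higher, and CG43676 had 950.8 in the mutant and 187.7 in wild type, 5.07-fold higher. CG42644 had 52.6 in the mutant and was listed at 0 in wild type, so no fold is given. As parts of 1 gene these are not independent. CG40498 beside them had 2021.3 in the mutant and 761.5 in wild type, 2.65-fold higher.

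Further out on arm 2R the genes that rose were l(2)41Ab, Scp1, CG42596 and Ir41a. The gene l(2)41Ab had 14116.4 in the mutant and 6531.4 in wild type, 2.16-fold higher (p = 8e-06 in the authors' deposited table). Scp1, a calcium-binding protein, had 6254.1 in the mutant and 3338.3 in wild type, and CG42596, now dpr21, had 9225.1 in the mutant and 4159.9 in wild type. Ir41a, an ionotropic receptor of olfactory neurons, had 14012.0 in the mutant and 8050.5 in wild type. These genes are long, and the median length of the 60 is 10 kb. With the 200 comparison genes taken nearest in level and length together, the median of the 60 was 0.09, against 0.23 on level alone. Ir41a then had a centred change of 0.34 and CG40498 one of 0.90. All 5 of the called genes with a length stood below the floor in both genotypes. Of these, 3 (CG40498, CG42596 and Ir41a) were lower in the mutant once the floor was taken off, which for long genes is no check of the rise. The 3 entries of DIP-lambda have no length. The part that gene length plays in the group was not tested further.

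The other arms had fewer calls at the centromere, to be read against the 0.812% of all genes that rose and the 0.652% that fell. Of the genes called higher there, 4 have a length (CG42402, Snap25, Ir40a and Cda4), and each stood below the floor in both genotypes. Each was lower in the mutant once the floor was taken off, which for long genes is no check of the rise. On arm 3R 3 of the nearest 60 genes rose and 0 fell, among them CG42621, now part of the unconventional myosin gene Myo81F, with 31058.5 in the mutant and 8460.0 in wild type, 3.67-fold higher, and CG41056. CG42402, also near this end, had 2672.3 in the mutant and 1385.8 in wild type. Other annotated pieces of Myo81F did not pass, since CG15831 and CG40155 had 3480.4 and 2266.3 in the mutant against 2662.0 and 2529.0 in wild type. On arm 3L 1 rose, the synaptic gene Snap25, with 20634.3 in the mutant and 11630.5 in wild type, and 1 fell. On arm 2L Ir40a rose and CG40042, a Tim23 gene of mitochondrial protein import, fell, with 2253.0 in the mutant and 3676.0 in wild type. On the X chromosome 1 rose, Cda4, a chitin deacetylase, with 6724.5 in the mutant and 3865.9 in wild type. At the telomere ends of the 5 arms, 0 of the 60 nearest genes rose on any arm, and 1 fell on arm 2R. Counts of 0 or 1 in 60 genes, at either end, are close to the shares over all genes.

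**Figure D5:**
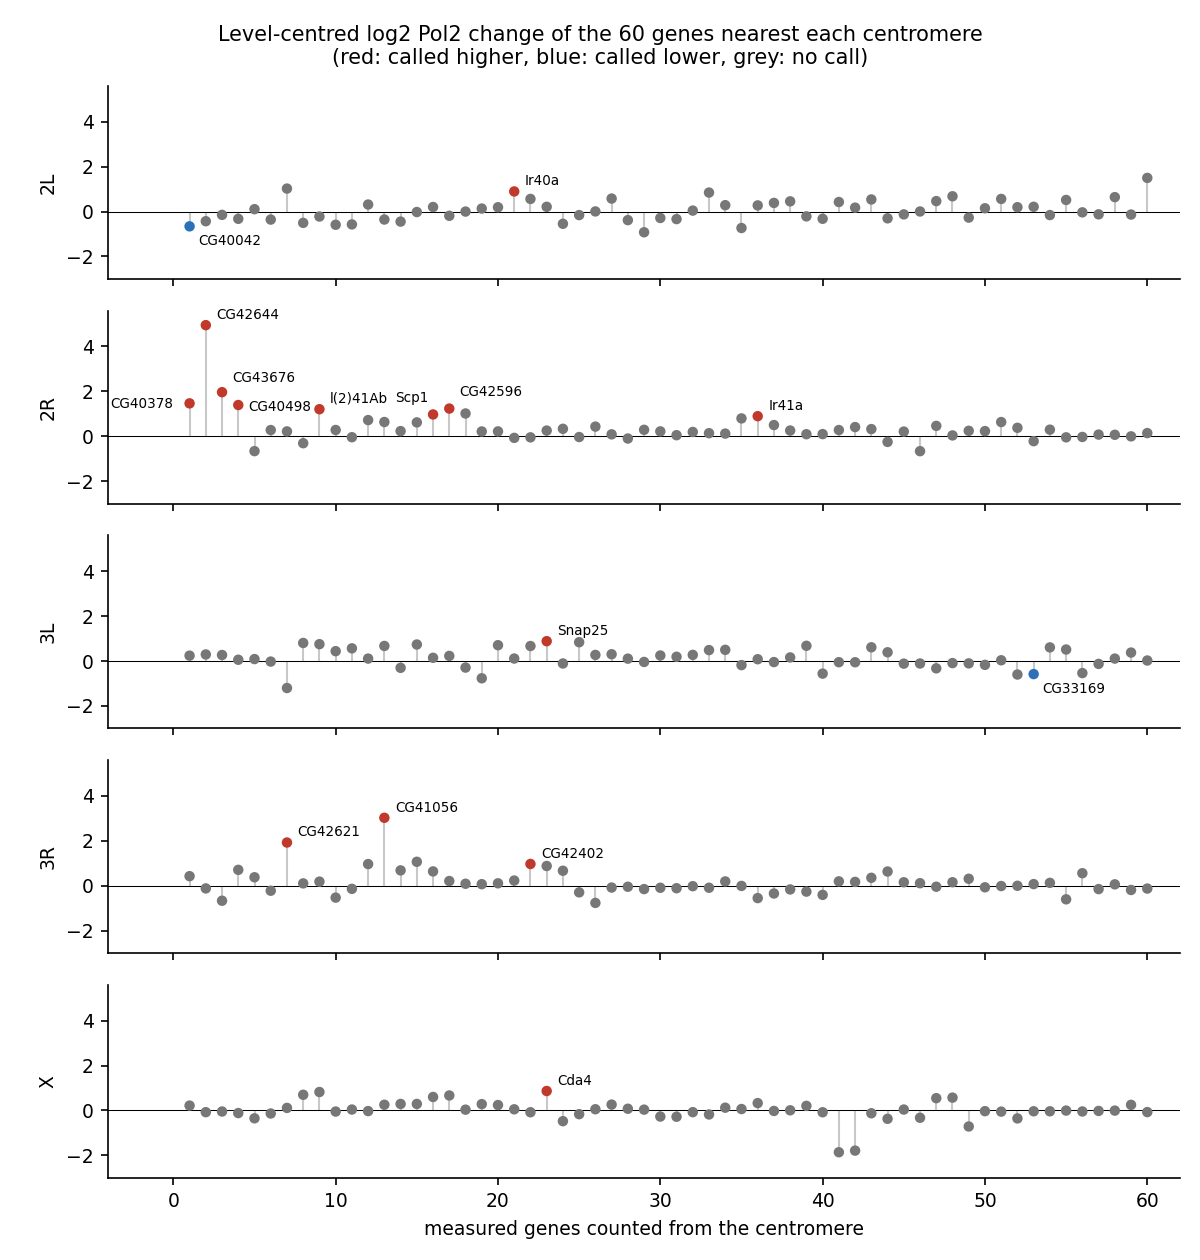
Level-centred log2 Pol2 change (cuff mutant over wild type) of the 60 measured genes nearest the centromere of each arm, counted outward from it, with called genes in red (higher) or blue (lower) and named. On arm 2R 8 genes are red and none blue, and on arm 3R 3 are red.

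Genes resident in pericentric heterochromatin, taken as a list, showed the same uneven pattern. Of 29 measured genes 5 rose (over all genes 0.812%) and 0 fell, with 24 higher means and a median log2 change of 0.18. The 5 were CG41056, CG42621, CG40498, Scp1 and Snap25. The last 3 stood below the floor in both genotypes, and CG41056 and CG42621 have no length. Genes that need heterochromatin for their expression were not among them, since light (lt) had 5041.8 in the mutant and 7585.9 in wild type and rolled (rl) had 14192.2 in the mutant and 12514.8 in wild type, both without a call. AGO3, a slicer of the piRNA ping-pong cycle that lies in heterochromatin, had 20875.4 in the mutant and 18337.1 in wild type. Centred on level and length together, the list median was 0.06. On chromosome 4, most of which is heterochromatin-like, 2 of 76 genes rose (Sox102F and the titin-like muscle gene bt) and 0 fell. The median level-centred change of that chromosome was 0.18, with 62 of 76 genes above 0, and it was 0.02 with level and length together.

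Length marked the gains as a whole. Genes that rose had a median length of 3.42 kb, those that fell 1.95 kb and those without a call 2.16 kb. Genes over 20 kb made up 28.3% of those that rose (30 of 106), 1.11% of those that fell (1 of 90) and 7.19% of all genes with a length. Of the 30 long genes that rose 8 stood above the floor in both genotypes, 3 in the mutant alone and 19 in neither. Examples chosen after their values were seen follow. IA-2, nAcRalpha-34E (a nicotinic acetylcholine receptor subunit, 11492.5 in the mutant and 5782.5 in wild type), the potassium channel gene slo (7912.8 in the mutant and 4656.9 in wild type) and Ten-a (24147.8 in the mutant and 14730.6 in wild type), a synaptic adhesion protein, all act in neurons. Of these IA-2 stood above the floor in both genotypes, nAcRalpha-34E in the mutant alone, and slo and Ten-a in neither. Another is kirre, an adhesion protein of the immunoglobulin family, which with 99280.3 in the mutant and 64622.0 in wild type was the most occupied gene that rose. The 3 measured neuron markers summed to 15696.1 in the mutant and 12076.2 in wild type with 0 called, and their part in these gains was not tested. Of 19 genes on a list of neuronal genes 1 rose, Snap25, with a list median of 0.47, and that median was 0.01 when centred on level and length together.

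The dpr, DIP, beat and side genes, which encode interacting immunoglobulin-family proteins of neuronal surfaces, were gathered after the values were seen. All 56 measured entries had a higher mean in the mutant, 9 rose (over all genes 0.812%) and 0 fell, with a median log2 change of 0.54. All 6 of the called entries that have a length stood below the floor in both genotypes. Of these, 2 (CG42313 and CG42596) were lower in the mutant once it was taken off, which is no check of their rise. The 9 include dpr10, with 5929.3 in the mutant and 3315.2 in wild type, and beat-IIIc, with 11072.5 in the mutant and 6083.0 in wild type, besides the 3 entries of DIP-lambda. Set against genes of like level and length the median was 0.06, and against genes of like level and the same RNA mark it was 0.14.

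Chemosensory receptor genes, most of them silent in the ovary, shared the upward offset, and a few were called. Of 60 gustatory receptor genes 3 rose and 0 fell (over all genes 0.812% rose), and 58 had a higher mean, with a median log2 change of 0.58. Gr28a had 668.2 in the mutant and 243.1 in wild type (p = 0.002 in the authors' deposited table), Gr22c had 245.2 in the mutant and 76.6 in wild type, and Gr2a had 799.5 in the mutant and 331.4 in wild type. Of 60 ionotropic receptor genes 3 rose, Ir41a, Ir40a and Ir67b, at a list median of 0.47, and all 3 stood below the floor in both genotypes. Of 60 odorant receptor genes 57 had a higher mean and 0 were called, at a median of 0.56. Centred on level these list medians were 0.20, 0.16 and 0.14. Cuticle protein genes gave 1 call in 113, close to the 0.812% over all genes, Lcp65Ag3, with 98.9 in the mutant and 14.4 in wild type. Of 48 testis genes 0 were called, though betaNACtes4, a testis form of the beta subunit of the nascent polypeptide-associated complex, rose outside that list. It had 146.5 in the mutant and 24.1 in wild type. Both Lcp65Ag3 and betaNACtes4 stood below the floor in both genotypes. The 5 testis markers summed to 10332.4 in the mutant and 10557.7 in wild type. Most of each sum was the largest single value, 8974.7 in the mutant and 9456.9 in wild type. Their median was 452.6 in the mutant and 320.3 in wild type.

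Lists of stress and defence genes held 1 or 2 calls each, to be read against the 0.812% of all genes that rose. Of 29 genes of DNA damage and apoptosis 1 rose, the tumour suppressor gene p53, with 2291.0 in the mutant and 1352.5 in wild type at p = 0.04 in the authors' deposited table. Of 45 immune genes 1 rose, Tep2, a thioester protein, with 4218.8 in the mutant and 2439.3 in wild type. Of 35 glutathione transferase genes 2 rose, the neighbours GstE6, with 6485.8 in the mutant and 4102.1 in wild type, and GstE8, with 3299.5 in the mutant and 1848.2 in wild type. Drat, a mediator of cell death under hypoxia that lies beside Orc1, had 11951.0 in the mutant and 5952.5 in wild type, 2.01-fold higher, while Orc1 fell.

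No gene of the piRNA pathway passed, 0 of 43, which is close to the 1.46% called over all genes. The list median was -0.03, beside 0.08 over all genes and -0.06 over genes with the RNA mark. Set against genes of like level it was 0.01, and against genes of like level and length 0.045. The partners of Cutoff had like values in both genotypes. For rhi, which encodes Rhino, these were 3266.0 in the mutant and 3090.7 in wild type, and for del, which encodes Deadlock, 3212.9 in the mutant and 3504.1 in wild type. Beside the germline cluster 42AB, jing had 49616.9 in the mutant and 42558.5 in wild type and Pld had 13382.1 in the mutant and 16176.3 in wild type, both without a call. The clusters themselves are not genes of the table and were not analysed here.

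The transcription machinery carried no call either, where 1.46% of all genes were called. None of 12 Pol2 subunit genes, 33 general transcription factor genes, 25 genes of pausing and elongation, 38 genes of termination and RNA decay and 27 Mediator genes passed, with list medians between -0.16 and -0.12. Centred on level and length together, these medians lay between -0.05 and 0.08. RpII215, the largest Pol2 subunit, had 13680.2 in the mutant and 15373.9 in wild type. Of 93 cytoplasmic ribosomal protein genes 0 passed, at a median of -0.06, and of 73 mitochondrial ones 0 passed, though 67 had a lower mean, at a median of -0.16. The mitochondrial median was -0.205 when centred on level and -0.007 when centred on level and length. A missed threshold does not show that these genes were alike in both genotypes, since 80% of all deposited p-values were 0.5 or more and the fold of a called gene was at least 1.54 upward and 1.26 downward.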

How the data were processed

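Per the file headers, the authors made the gene table with DESeq, pooling the dispersion over conditions and using only its parametric fit. The deposited genotype values are a signal never below 0, with the 3 libraries of a genotype merged into 1 value. Whether they are size-factor-scaled counts is not stated. Deposited log2 folds carry 1 decimal, and the deposited p-value 1 significant digit. Whether that p was adjusted is not stated, and 27 calls carry a printed 0.05 that may be rounded. In the record of column units the deposited p is entered as a score, because a heading line in its column broke the range of a p-value. Genome build dm3 is named in the submitters' processing notes. Per the submitters' notes the authors also used DESeq 1.16.0, MACS2 2.0.10.20130501, TopHat2 2.0.8, Bowtie2 2.0.0, bedtools, SAMtools 0.0.19 and cutadapt 1.2.1, with no step named for each. The annotation and the counting rule are not given in the sources used here, nor is depth per library.

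Computed here, with Python 3.11.15, numpy 2.4.6 and pandas 2.3.3, were ratios of the authors' means, log2((mutant + 1)/(wild type + 1)) and that change minus the median of the 200 genes nearest in level. The centring was tested on simulated data. The RNA table served only to mark genes with a mean of 50 or more as expressed. Gene names, lengths and order came from a table of assembly Release 6, which matched 13660 of 13797 genes. The 87 genes that share an entry in it were given no length. Lists are described by counts and medians, with no test. The members, the 24 gene lists and the 19 families were chosen with earlier results of these data known. Named genes are the 20 called genes with the highest and lowest level-centred change at a mean of 50 or more, called members of lists, genes whose deposited p is listed as 0, runs of called neighbours, cuff with rhi, del, jing and Pld, and the 5 most occupied genes. Others were named after their values were seen. With 1 value per genotype, neither SDs nor tests over libraries were possible, and nothing says whether the 3 replicates were independent beyond separate dissections. The Cuff ChIP peaks were not used.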

Additional observations from a re-analysis of the deposited data

How the results depend on the processing

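The counts of calls moved most. Instead of 112 higher and 90 lower, 53 and 56 passed at p of 0.01 or less, and 61 and 28 at p of 0.05 or less with a 2-fold difference besides, CG42644 (listed at 0 in wild type) among the 61. After the deposited p was adjusted again by Benjamini-Hochberg, 18 and 31 passed. With expressed genes alone 72 were higher. Of 110 named genes with a call, 65 did not pass after that adjustment, which is too strict if p was already adjusted. The median log2 change of the lowest level class, 0.63, was 0.76 with level taken from wild type and 0.49 from the mutant. The chorion median of -1.07 was -0.92 when centred on level and length. The list medians were most open to length: 36 of 44 moved with it, 20 of 44 with level and RNA mark, and 16 of 44 with level. No named gene with a call changed direction under the other centrings or pseudocounts. With the floor taken off, 5 of the 47 named genes called higher that have a length were lower in the mutant. These were CG40498, CG42596, Ir40a, Ir41a and Snap25, all below the floor in both genotypes, so with no ratio and no check of their rise. Among uncalled genes jing at -0.025 and rhi at -0.087 were then lower in the mutant. Hsp83 at -0.057 differed in sign only from its level-centred value of 0.009. Its log2 change before centring was -0.055, and the values above the floor are not centred. Centring on length or RNA mark, the floor, other centromere windows and counting equal values once were chosen after seeing the data. No paired analysis was possible because the table gives 1 merged value per genotype, and for the same reason leaving out a replicate was not run.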

Other observations

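Other gene families followed the level and expression pattern without calls, where 1.46% of all genes were called. All 21 accessory gland protein genes had a higher mean in the mutant, at a median log2 change of 0.64, as did 15 of 16 Jonah protease genes at 0.60, 47 of 51 odorant binding protein genes at 0.44 and 22 of 24 Osiris genes at 0.43. All of these are families with low Pol2 values in the ovary, and their level-centred medians were 0.19, 0.06, 0.08 and 0.04. On the other side, 34 of 46 proteasome subunit genes had a lower mean, at a median of -0.24, and 19 of 22 tRNA synthetase genes, at -0.19, again with 0 calls. Centred on level and length these medians were -0.04 and -0.08.

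Mucin genes held 1 call in each direction, where over all genes 0.812% rose and 0.652% fell, and 14 of 19 had a higher mean. Their median log2 change was 0.44, and it was 0.14 when centred on level and -0.06 when centred on level and length. Mur18B rose, with 672.6 in the mutant and 252.6 in wild type. Muc12Ea fell, with 2423.8 in the mutant and 4500.8 in wild type. Muscle genes also held 1 call in each direction, to be read against the same shares, with bt higher and Prm lower. Of the 29 muscle genes 25 had a higher mean. Their median log2 change was 0.395, and it was 0.1 when centred on level and length together. Prm lies beside a chorion cluster, in a run of called genes with overlapping spans. The gene bt stood below the floor in both genotypes. MtnA, a metallothionein that binds copper and zinc, had 1596.9 in the mutant and 770.9 in wild type, 2.07-fold higher (p = 0.008 in the authors' deposited table), and was named after its values were seen.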
